A study of Mus musculus with 11 samples.

Results

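Heat shock proteins and the DNAJ co-chaperones that work with them were followed in transferred vTreg53 Treg cells. The genes were taken by symbol from the deposited count table: the heat shock protein families Hspa, Hspb, Hspd, Hspe, Hsph and Hsp90, the Dnaja, Dnajb and Dnajc families, the transcription factors Hsf1 and Hsf2, and Bag3. Of 52997 listed genes, 77 matched, and 63 of these passed the minimum of a mean above 10 in at least 1 of 4 groups after scaling to the mean library total, as did 12932 genes in all. Of the 63, 59 passed in all 4 groups, while Hspa1a, Hspa1b, Dnajc25 and Dnajc28 passed only in some, so a count over the 63 includes genes that entered through the group in which they were higher. The 14 genes that did not pass (Dnajb3, Dnajb7, Dnajb8, Dnajc22, Dnajc5b, Dnajc5g, Hspa12a, Hspa12b, Hspa1l, Hspb2, Hspb3, Hspb7, Hspb8 and Hspb9) had highest group means of 0.272 to 9.88. Nearest below the minimum was Hspa12b, and the lowest gene above it was Dnajc25, at 14.1 and 17.5 in VAT of mice given adjuvant alone.

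HSP70 proteins bind and release unfolded stretches of other proteins in a cycle driven by ATP. DNAJ proteins, also called HSP40, bring clients to HSP70 and speed up ATP hydrolysis, nucleotide exchange factors such as BAG3 and the HSP110 protein HSPH1 release ADP, and HSP90 finishes the folding of kinases, steroid receptors and other clients. HSF1 turns on many of these genes when unfolded proteins accumulate, through repeats of a short element in their promoters, while the chaperones of the endoplasmic reticulum (ER) answer to a separate pathway through another element.

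The cells were double-sorted clonotype+ Treg cells from vTreg53 Tg+ mice, whose T cell receptor (TCR) transgenes come from 1 Treg clone of visceral adipose tissue (VAT). Donor CD45.2+ Treg cells came from pooled spleen and lymph nodes of male TCR-tg mice (C57BL/6) that also carried a Foxp3-GFP reporter allele, and they were transferred into male CD45.1 B6 mice. The labels give 15 wk as the age of the samples. After 6 weeks the recipients received complete Freund's adjuvant subcutaneously and, 1 week later, incomplete Freund's adjuvant intraperitoneally, either alone or with Fat1562, a peptide that stimulates the vTreg53 TCR. The labels call the control mice unimmunized and name PBS, whereas the paper describes adjuvant alone, and they are called adjuvant alone here. Each Smart-seq2 library held 1000 cells, sorted 1 week after the boost from pooled spleen and lymph nodes (Spl/LN) or from VAT. There were 3 libraries for either Spl/LN group (adjuvant alone, and adjuvant/Fat1562), 2 for VAT with adjuvant alone and 3 for VAT with adjuvant/Fat1562. Epididymal VAT was digested with collagenase in a warm bath and Spl/LN was not, so tissue and digestion cannot be told apart in any comparison of VAT with Spl/LN.

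Total counts ran from 4490242 to 6570057 per library. Pairs of libraries within a group differed by 5.454 to 11.63 times counting noise (chi-square per degree of freedom). Each library was counted as a sample, although this excess does not tell whether the libraries are independent. The paper calls the replicates biological, but the labels do not say that they came from separate mice, and p-values then measure the spread between these libraries only. All libraries carried the Treg cell marker Foxp3, at 6747 to 10249.9 normalized counts (counts scaled by the TMM factors to the mean library total of 5359948). Summed over 6 adipocyte markers the level was 0.953 to 10.04 normalized counts per library, over 10 macrophage and monocyte markers 32.4 to 146, and over 6 B cell markers 71.9 to 226. Summed over 6 dendritic cell markers it was 50.5 to 79.2 in Spl/LN and 111 to 226 in VAT, mostly from Xcr1 and Zbtb46, with Siglech at or near 0 throughout and Clec9a at 0 in all VAT libraries. Over 9 stromal and endothelial markers, mostly from Pecam1, it was 267 and 313 in VAT adjuvant alone against 449 to 633 in the other groups, and over 5 CD8 T and NK cell markers 96.2 to 195. The part of these markers in the results was not tested. Immediate early genes that cell dissociation can induce (16 genes, among them Fos, Jun, Dusp1 and Nr4a1) differed far more. Their summed level was 15387 to 15575 in Spl/LN adjuvant alone, 13424 to 14857 in Spl/LN adjuvant/Fat1562, 127460 and 151470 in VAT adjuvant alone, and 56293 to 71753 in VAT adjuvant/Fat1562. Whether these genes had a part in the chaperone values was not tested. In these bulk libraries, fewer cells that express a gene and less RNA per cell cannot be told apart.

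The elements through which heat shock and ER stress are known to act were searched in the members' promoters. Matches in Hspd1, Hspe1, Hsph1, Hspa5, Hsp90b1 and Dnajc3 are shown here. Of these genes, only Hspd1 and Hspe1 were called in any of the comparisons below. RefSeq promoters (GRCm38.p6, 250 bases before to 50 after the start) matched 51 of the 63 members. The members without an entry were not searched. They were Hspa8, Hspa9, Hspa13, Hsp90aa1, Hsp90ab1, Hsf1, Dnajc2, Dnajc5, Dnajc11, Dnajc12, Dnajc18 and Dnajc30. The 3-unit heat shock element GAANNTTCNNGAA or TTCNNGAANNTTC, searched on both strands, was in 4 of these 51 members (7.84%: Dnajb6, Hspd1, Hspe1 and Hsph1) and in 0.662% of all 27025 genes with a promoter entry (0.603% of 32851 promoters). The ER stress element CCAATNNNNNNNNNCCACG, also on both strands, was in 3 of 51 members (5.88%: Dnajc3, Hsp90b1 and Hspa5) and in 0.137% of all genes (0.119% of promoters). A match is a description of the letters, and other spacings of the units were not searched. Each stretch below runs 5′ to 3′ on the strand of its gene, with the matched letters in capitals. Hspd1 and Hspe1, which encode the mitochondrial chaperonin HSP60 and its lid HSP10, lie head to head and share 1 stretch, printed on both strands, which lies in an annotated exon of Hspd1. The Hsph1 and Hspa5 stretches also lie in annotated exons, each of its own gene. From the start of each gene the first matched base lay at -144 for Hspd1, -89 for Hspe1, 15 for Hsph1, -65 for Hspa5, -212 for Hsp90b1 and -105 for Dnajc3, and Hsp90b1 held another match at -107. Counted from another listed start of Hsph1, its match lay at 36.
Hspd1 (chr1:55088053-55088082, minus strand): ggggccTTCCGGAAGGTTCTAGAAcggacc
Hspe1 (chr1:55088053-55088082, plus strand): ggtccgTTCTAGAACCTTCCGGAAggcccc
Hsph1 (chr5:149636279-149636308, minus strand): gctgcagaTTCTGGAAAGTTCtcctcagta
Hspa5 (chr2:34772020-34772049, plus strand): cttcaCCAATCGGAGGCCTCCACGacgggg
Hsp90b1 (chr10:86705632-86705661, minus strand): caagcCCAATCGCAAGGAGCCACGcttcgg
Dnajc3 (chr14:118937822-118937851, plus strand): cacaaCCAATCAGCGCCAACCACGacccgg

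Per length of annotated exons, the constitutive HSP90 gene Hsp90ab1 stood highest of the 63 in every group, with group means of 2874 normalized counts per kb in Spl/LN adjuvant alone, 3529 in Spl/LN adjuvant/Fat1562, 4380.0 in VAT adjuvant alone and 4971 in VAT adjuvant/Fat1562. The constitutive HSP70 gene Hspa8 followed, at 1241, 1808, 2137 and 2318 per kb in the same order, and then Hspa5, the ER-resident HSP70 also called BiP, at 929, 1102, 1075 and 1077. The strictly inducible pair Hspa1a and Hspa1b stood among the lowest, at 1.25 and 0.447 per kb in Spl/LN adjuvant alone. For 14 members over 10% of the 38-base stretches in their exons (the read length) also occur in other annotated transcripts, among them Hsp90aa1 (49.8%), Hspa8 (42.6%) and Dnaja1 (21.7%), and 21 members overlap an exon on the opposite strand, so their counts are less certain. Together the 63 genes took 0.804 to 0.844% of all counts in Spl/LN adjuvant alone, 0.815 to 1.06% in Spl/LN adjuvant/Fat1562, 0.950 and 1.01% in VAT adjuvant alone, and 0.903 to 1.175% in VAT adjuvant/Fat1562. Under adjuvant alone the ranges of Spl/LN and VAT did not overlap, and under Fat1562 they did. Under adjuvant alone the HSP70 family took 0.242 to 0.249% in Spl/LN and 0.305 and 0.324% in VAT. The HSP90 family took 0.217 to 0.256% in Spl/LN and 0.286 and 0.316% in VAT. The DNAJC family did not follow, at 0.164 to 0.180% in Spl/LN and 0.164 and 0.167% in VAT.

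**Figure D1:**
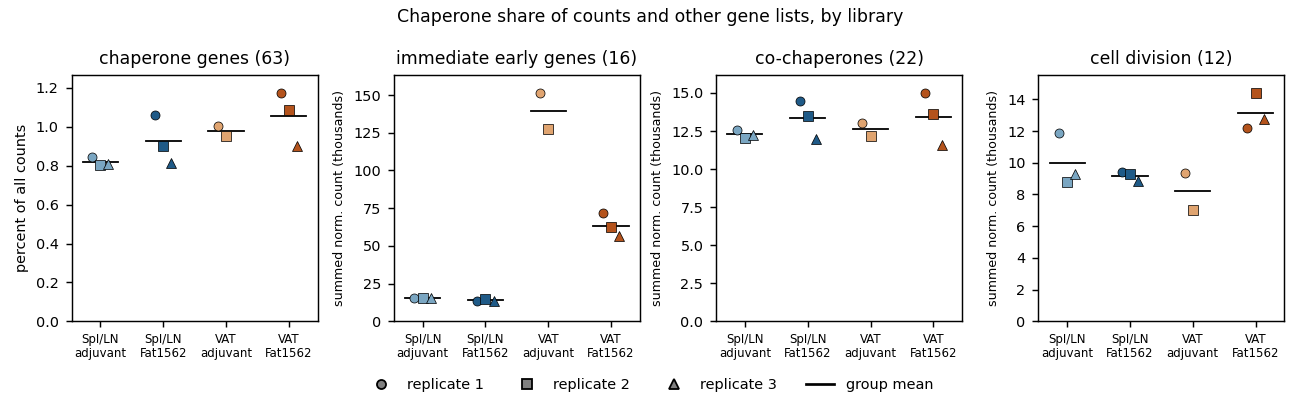
Share of all counts in the 63 chaperone genes (percent) and summed normalized counts (axis in units of 1000) of the immediate early, co-chaperone and cell division lists, one point per library with a symbol for each replicate number and a bar at the group mean. The immediate early genes stand at 127460 and 151470 in VAT adjuvant alone, and replicate 1 is the highest library for the chaperone share in both Fat1562 groups.

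The first comparison asked how the cells in VAT differed from those in Spl/LN when the mice had received adjuvant alone. Of the 63 chaperone genes, 12 were higher in VAT (19%, where 9.09% of all 12932 tested genes were) and 1 was lower (1.59%, where 7.18% of all genes were). The median log2 fold change was 0.17 over the members and -0.03 over all tested genes. The increases fell on HSP70 genes, on DNAJ partners and on Bag3, Hsf2 and Hsp90ab1, and the single decrease fell on an ER co-chaperone. The tests were edgeR's quasi-likelihood tests with adjustment over all tested genes, here and in the comparisons that follow.

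**Figure D2:**
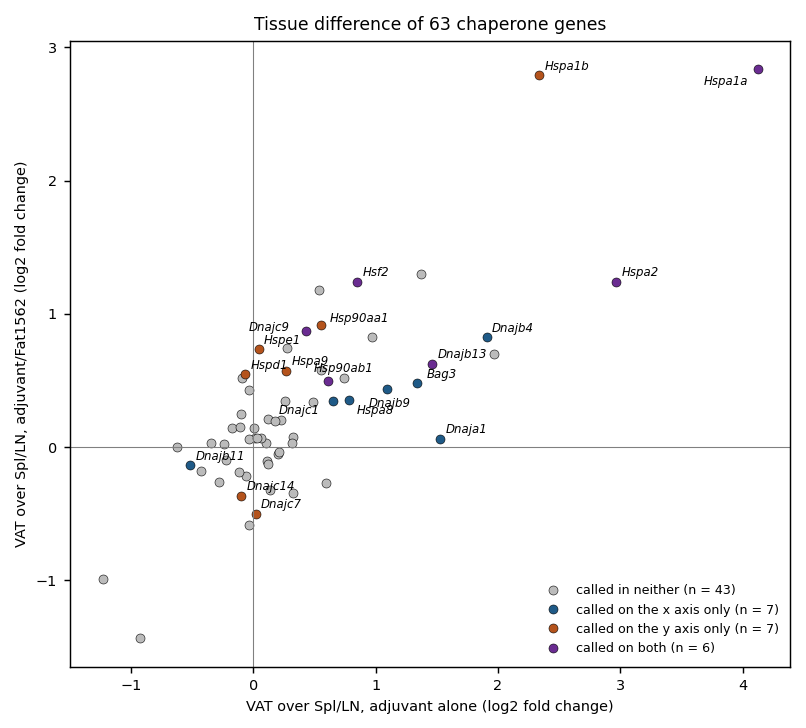
Log2 fold change of VAT over Spl/LN for each of the 63 genes in mice given adjuvant alone (x axis) and adjuvant/Fat1562 (y axis), 1 point per gene, coloured by which comparison called it. Hspa1a and Hspa2 lie farthest to the right, 43 genes were called in neither comparison, and the axes share no library.

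Hspa2, an HSP70 gene known best from the testis, and Hspa1a, the stress-inducible HSP70, showed the largest differences. Hspa2 (chr12:76404176-76406938, plus strand) was at 51.1, 59.4 and 28.3 normalized counts in the Spl/LN libraries and at 369 and 352 in the VAT libraries. The groups lay far apart, and the log2 fold change was 2.97 ± 0.26 (SE), adjusted p = 2e-07, a 7.82-fold difference. Hspa1a (chr17:34969190-34972156, minus strand) was nearly silent in Spl/LN, with 4, 7 and 0 raw counts, against 37 and 72 in VAT. Its log2 fold change was 4.12 ± 1.18 (SE), adjusted p = 0.0216, and with so few counts in Spl/LN it depended on single libraries: the call was lost without Spl/LN adjuvant alone replicate 1 or 3 or VAT adjuvant alone replicate 2 (log2 fold change 3.44 to 4.18, adjusted p = 0.0552 to 0.151). Hspa1b, its near-identical neighbour, had 2, 0 and 2 raw counts in Spl/LN and 6 and 6 in VAT and was not called (log2 fold change 2.34 ± 1.28 (SE), adjusted p = 0.222). Of the 38-base stretches in their exons, 68.8% of Hspa1a and 65.9% of Hspa1b occur elsewhere in the annotated transcripts, mostly in each other. How reads with several matches were counted is not known, so the levels of both genes and the split of reads between them are uncertain.

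Among the abundant chaperones, Hspa8 was at 5232, 5229.8 and 5547 in Spl/LN and 9512 and 8874 in VAT, and every VAT library lay above every Spl/LN library (log2 fold change 0.78 ± 0.14 (SE), adjusted p = 0.000644). Hsp90ab1 was at 9374, 8012 and 8469 in Spl/LN and 13973 and 12297 in VAT, again without overlap (log2 fold change 0.61 ± 0.15 (SE), adjusted p = 0.00816), but it lost the call without VAT adjuvant alone replicate 1 (log2 fold change 0.51, adjusted p = 0.0947). Its inducible partner Hsp90aa1 had values of 739.8, 542 and 703 in Spl/LN and 1027 and 914 in VAT and was not called (log2 fold change 0.55 ± 0.22 (SE), adjusted p = 0.0977). The remaining members of these families gave no call: Hspa5, Hspa9, the mitochondrial HSP70, Hsph1, Hsp90b1, the ER-resident HSP90, Hspd1 and Hspe1 had log2 fold changes of 0.21, 0.27, 0.17, 0.12, -0.07 and 0.04, with adjusted p from 0.188 to 0.912.

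In the DNAJ families 1 of 4 DNAJA, 3 of 10 DNAJB and 2 of 25 DNAJC members were higher, against 9.09% of all genes, and among the HSP70 genes 3 of 10. Dnaja1, a cytosolic HSP70 partner (chr4:40722150-40737149, plus strand), was at 752, 982 and 868 in Spl/LN and 2542 and 2462 in VAT (log2 fold change 1.53 ± 0.25 (SE), adjusted p = 0.00037, 2.88-fold). Dnajb4, another cytosolic partner, was at 55.0, 33.3 and 33.8 in Spl/LN and 182 and 123 in VAT (log2 fold change 1.91 ± 0.41 (SE), adjusted p = 0.0035), and it fell short at 1.60 (adjusted p = 0.0614) once VAT adjuvant alone replicate 1 was left out. The groups were separate for both of these genes. Dnajb13, a DNAJ gene known from sperm, was at 245, 244 and 161 in Spl/LN and 622 and 570.0 in VAT (log2 fold change 1.46 ± 0.19 (SE), adjusted p = 2.7e-05). It shares 305 exon bases with Ucp2 on the opposite strand, and without knowledge of strand in the counting, reads from the pair cannot be told apart there. Ucp2, which encodes a mitochondrial carrier, was at 7089.8 to 7528 in Spl/LN and 7727 and 8114 in VAT and was not called (log2 fold change 0.12, adjusted p = 0.403). Since Ucp2 stood far above Dnajb13, its missing call does not tell how much shared reads moved the Dnajb13 value. After Fat1562 in Spl/LN, Ucp2 was called higher (log2 fold change 0.39, adjusted p = 0.00599). Dnajb13 was not called there (log2 fold change 0.12, adjusted p = 0.772).

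Dnajb9, an ER partner of BiP, was at 117, 196 and 215 in Spl/LN and 373 and 378 in VAT (log2 fold change 1.09 ± 0.22 (SE), adjusted p = 0.00176), and Dnajc1, a membrane-anchored ER partner, at 477, 486 and 661 in Spl/LN and 872 and 832 in VAT (log2 fold change 0.65 ± 0.14 (SE), adjusted p = 0.00302). In contrast, Dnajb11, a soluble ER partner of BiP, was the single gene that fell, from 1050.4, 987 and 1078 in Spl/LN to 697 and 753 in VAT (log2 fold change -0.52 ± 0.11 (SE), adjusted p = 0.00215). Dnajc9, which handles histones, had values of 1084, 949 and 951 in Spl/LN and 1436 and 1249 in VAT (log2 fold change 0.43 ± 0.14 (SE), adjusted p = 0.0421), a call lost without Spl/LN adjuvant alone replicate 2 or 3, any 1 of the Spl/LN adjuvant/Fat1562 libraries, VAT adjuvant alone replicate 1 or 2 or VAT adjuvant/Fat1562 replicate 2 (log2 fold change 0.33 to 0.53, adjusted p = 0.053 to 0.292). Dnajb1, the HSP40 of the classic heat shock response, was not called at 611, 669.7 and 699 in Spl/LN and 839 and 813 in VAT (log2 fold change 0.32 ± 0.30 (SE), adjusted p = 0.523). The members at the ends of the DNAJC range, Dnajc6 at -0.62 and Dnajc25 at 1.97, were not called.

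Bag3, the exchange factor that also directs aggregates to autophagy, was at 122, 160.4 and 167 in Spl/LN and 375 and 383 in VAT, with a gap between the groups (log2 fold change 1.34 ± 0.19 (SE), adjusted p = 7.87e-05, 2.53-fold). Hsf2 was at 76.2, 87.5 and 137 in Spl/LN and 164 and 198 in VAT (log2 fold change 0.85 ± 0.27 (SE), adjusted p = 0.0401) and lost its call without Spl/LN adjuvant alone replicate 1 or 2, Spl/LN adjuvant/Fat1562 replicate 1, VAT adjuvant alone replicate 1 or 2 or VAT adjuvant/Fat1562 replicate 2 (log2 fold change 0.68 to 0.98, adjusted p = 0.051 to 0.237). Hsf1, the factor that drives the heat shock response, was at 444, 409 and 625 in Spl/LN and 526 and 560.0 in VAT, with overlapping groups and no call (log2 fold change 0.14 ± 0.17 (SE), adjusted p = 0.651). The small heat shock proteins (3 members) gave no call, with log2 fold changes from -1.23 (Hspb1) to 0.03 (Hspb11).

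**Figure D3:**
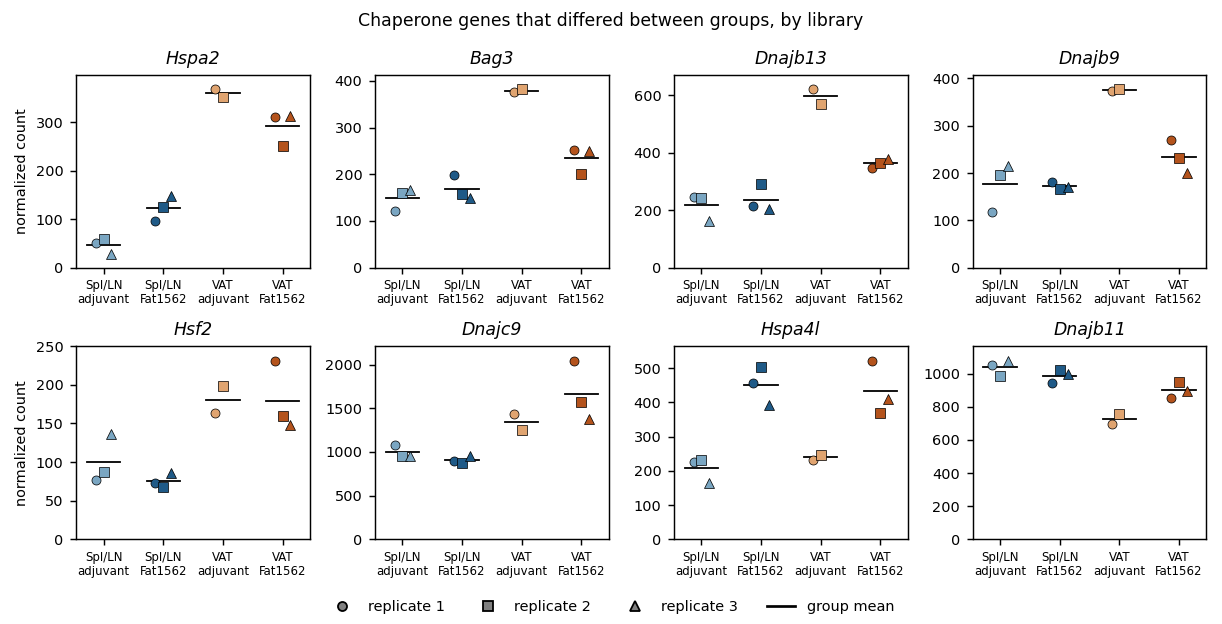
Normalized counts per library (linear axes from 0) for 8 chaperone genes, with a symbol for each replicate number and a bar at the group mean. Hspa2, Bag3 and Dnajb13 separate VAT from Spl/LN among mice given adjuvant alone, and Hspa4l separates both Fat1562 groups from both groups given adjuvant alone.

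The same tissue comparison in mice immunized with Fat1562 uses other libraries and called a partly different set of genes. There, 11 of 63 members were higher in VAT (17.5%, against 8.26% of all genes) and 2 were lower (3.17%, against 6.73%), with a median log2 fold change of 0.15 over the members and -0.01 over all genes. Higher in both comparisons were Hspa1a, Hspa2, Hsp90ab1, Hsf2, Dnajb13 and Dnajc9. Higher here and not called under adjuvant alone were Hspa1b, Hsp90aa1 and the mitochondrial chaperones Hspa9, Hspd1 and Hspe1, and for none of these 5 genes was the interaction of tissue and Fat1562 called.

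Hspa2 was at 96.3, 125 and 147 in Spl/LN and 311, 250.3 and 314 in VAT, still without overlap (log2 fold change 1.24 ± 0.22 (SE), adjusted p = 0.000721, 2.37-fold). Hspa1a was at 79.1, 39.5 and 4.003 in Spl/LN and 661, 130.2 and 77.5 in VAT (log2 fold change 2.84 ± 0.77 (SE), adjusted p = 0.0179). Its groups overlapped slightly and VAT replicate 1 stood far above the rest. The call was lost without that library, at 1.35 (adjusted p = 0.297), and also without Spl/LN adjuvant/Fat1562 replicate 2, at 2.83 (adjusted p = 0.0685), or replicate 3, at 2.27 (adjusted p = 0.062). Hspa1b had 7, 6 and 2 raw counts in Spl/LN and 73, 12 and 9 in VAT (log2 fold change 2.79 ± 0.92 (SE), adjusted p = 0.0467), and lost its call without any 1 of the Spl/LN adjuvant/Fat1562 libraries, VAT adjuvant alone replicate 1 or 2 or VAT adjuvant/Fat1562 replicate 1 (log2 fold change 1.06 to 3.099, adjusted p = 0.0509 to 0.557), the lowest estimate without VAT adjuvant/Fat1562 replicate 1. Hspa1b passed the minimum through this VAT group alone, so its call in the direction of that group is given as a description. Hspa8 did not pass here, at 9276, 7943 and 6113 in Spl/LN and 11219, 10558 and 8126 in VAT (log2 fold change 0.36 ± 0.13 (SE), adjusted p = 0.0662), but it passed without Spl/LN adjuvant/Fat1562 replicate 1, at 0.50 (adjusted p = 0.0168), or without VAT adjuvant/Fat1562 replicate 3, at 0.49 (adjusted p = 0.0128).

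Both cytosolic HSP90 genes were higher in VAT. Hsp90aa1 was at 876, 605 and 502 in Spl/LN and 1579, 1247 and 917 in VAT, with every VAT library above every Spl/LN library (log2 fold change 0.92 ± 0.20 (SE), adjusted p = 0.00378). Hsp90ab1 was at 13068, 10129 and 8549 in Spl/LN and 17079.6, 15633 and 12014 in VAT, with overlap, since the lowest VAT library lay below the highest Spl/LN library (log2 fold change 0.49 ± 0.13 (SE), adjusted p = 0.0179), and its call was lost without Spl/LN adjuvant/Fat1562 replicate 2 or 3 or VAT adjuvant/Fat1562 replicate 1 or 2 (log2 fold change 0.36 to 0.46, adjusted p = 0.0742 to 0.105). The ER paralogue Hsp90b1, which carries the ER stress element in its promoter, had values of 2933, 2752 and 2492 in Spl/LN and 3502, 3301 and 2684 in VAT and was not called (log2 fold change 0.21 ± 0.10 (SE), adjusted p = 0.173), although it passed without VAT adjuvant/Fat1562 replicate 3, at 0.32 (adjusted p = 0.0323). Hspa5, with the same element, had a log2 fold change of -0.03 ± 0.10 (SE), adjusted p = 0.88.

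Of the mitochondrial members, Hspa9, Hspd1 and Hspe1 were higher in VAT, while the mitochondrial DNAJ member Dnaja3 (log2 fold change 0.03 ± 0.18 (SE), adjusted p = 0.932) was not called, nor was Trap1, the mitochondrial HSP90, which lies outside the chosen symbols (log2 fold change 0.05 ± 0.20 (SE), adjusted p = 0.903). Hspe1 was at 257, 228 and 221 in Spl/LN and 474, 408 and 296 in VAT, without overlap (log2 fold change 0.74 ± 0.17 (SE), adjusted p = 0.00566). Hspd1, its head-to-head neighbour, was at 688, 553 and 517 in Spl/LN and 1024, 931 and 619 in VAT, with overlap, since VAT replicate 3 lay below Spl/LN replicate 1 (log2 fold change 0.55 ± 0.16 (SE), adjusted p = 0.0276). The Hspd1 call was lost without Spl/LN adjuvant/Fat1562 replicate 2 or 3 or VAT adjuvant/Fat1562 replicate 1 or 2 (log2 fold change 0.40 to 0.51, adjusted p = 0.103 to 0.157). Hspa9 was at 757, 715 and 806 in Spl/LN and 1139.5, 1313 and 944 in VAT with separate groups (log2 fold change 0.57 ± 0.12 (SE), adjusted p = 0.00282). Hspd1 shares 48.1% of its 38-base stretches with other transcripts and Hspe1 27.3%, and their exons overlap by 112 bases on opposite strands. In the list of 10 other mitochondrial folding and proteolysis genes, 1 was higher in VAT, Afg3l2, a subunit of an inner membrane protease (log2 fold change 0.78 ± 0.14 (SE), adjusted p = 0.000884), with a list median of 0.22.

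Dnajc9 was at 899, 871 and 949 in Spl/LN and 2046, 1572 and 1375 in VAT, a clear separation (log2 fold change 0.88 ± 0.13 (SE), adjusted p = 9.28e-05). In the same comparison 8 of 12 cell division genes were higher in VAT, and their part in the Dnajc9 value was not tested. Hsf2 was at 72.5, 68.4 and 85.7 in Spl/LN and 232, 159.8 and 148 in VAT (log2 fold change 1.24 ± 0.25 (SE), adjusted p = 0.00223), and Dnajb13 at 214, 292 and 203 in Spl/LN and 347, 365 and 376 in VAT (log2 fold change 0.63 ± 0.17 (SE), adjusted p = 0.0211), the latter call being lost without Spl/LN adjuvant/Fat1562 replicate 1 or 3 or VAT adjuvant/Fat1562 replicate 2 or 3 (log2 fold change 0.53 to 0.62, adjusted p = 0.0608 to 0.1). Lower in VAT were Dnajc7, a co-chaperone that binds both HSP70 and HSP90, at 1512, 1419 and 1380.2 in Spl/LN and 952, 1122 and 978 in VAT (log2 fold change -0.50 ± 0.12 (SE), adjusted p = 0.0085), and Dnajc14, at 710.3, 753 and 653 in Spl/LN and 611, 508 and 527 in VAT (log2 fold change -0.36 ± 0.11 (SE), adjusted p = 0.0319). Dnajc14 lost its call without Spl/LN adjuvant/Fat1562 replicate 1 or 2 or VAT adjuvant/Fat1562 replicate 2 or 3 (log2 fold change -0.36 to -0.31, adjusted p = 0.085 to 0.139), and 20.1% of its 38-base stretches occur elsewhere.

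Of the 13 genes called under adjuvant alone, 7 were not called here: Hspa8, Bag3, Dnaja1, Dnajb4, Dnajb9, Dnajb11 and Dnajc1. Dnaja1 was at 2274, 1422 and 1011 in Spl/LN and 2182, 1575 and 1162 in VAT, with fully overlapping groups (log2 fold change 0.06 ± 0.23 (SE), adjusted p = 0.902). Bag3 was at 197, 157 and 149 in Spl/LN and 252, 201 and 249.8 in VAT (log2 fold change 0.48 ± 0.18 (SE), adjusted p = 0.076). Dnajb9, Dnajc1 and Dnajb11 had log2 fold changes of 0.44, 0.35 and -0.14, with adjusted p of 0.161, 0.0705 and 0.378. For Hsf1, Dnajb1 and Hsph1, called in neither comparison, the log2 fold changes were -0.32, -0.34 and 0.20, with adjusted p of 0.189, 0.44 and 0.809. The DNAJB members at the ends of the range, Dnajb5 at -1.43 and Dnajb4 at 0.82, were not called here. Leaving out 1 library brought the 13 calls of this comparison down to 8 without Spl/LN adjuvant/Fat1562 replicate 2 or 3. The calls over all tested genes in those fits are not given here, so this fall is not shown to be particular to chaperones. In the comparison under adjuvant alone, the count without 1 library stayed between 9 and 14.

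Immunization with Fat1562 was compared with adjuvant alone within each tissue, and these comparisons share their libraries with the tissue comparisons above. In Spl/LN, 6 of 63 members were higher after Fat1562 (9.52%, against 2.58% of all genes) and 0 were lower (against 1.4%), by edgeR's quasi-likelihood test. At an unadjusted p under 0.05 there were 13 members (20.6%, against 18.3% of all genes), and DESeq2 called 4 higher (6.35%, against 3.7%) and 1 lower (1.59%, against 2.43%). The 6 that edgeR called were Hspa2, Hspa4l, Hspa8, Dnaja1, Dnajb1 and Dnajc1, that is, HSP70 family members and DNAJ partners. The median log2 fold change was 0.06 over the members and within 0.01 of 0 over all genes.

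Hspa4l, an HSP110-like relative of HSP70, was at 227, 233 and 165 with adjuvant alone and 457, 502 and 393 with Fat1562, a wide gap (log2 fold change 1.11 ± 0.17 (SE), adjusted p = 0.000817, 2.16-fold). Hspa2 was at 51.1, 59.4 and 28.3 with adjuvant alone and 96.3, 125 and 147 with Fat1562, also apart (log2 fold change 1.42 ± 0.24 (SE), adjusted p = 0.00242, 2.67-fold). For Hspa8 the values were 5232, 5229.8 and 5547 with adjuvant alone and 9276, 7943 and 6113 with Fat1562, for Dnaja1 752, 982 and 868 with adjuvant alone and 2274, 1422 and 1011 with Fat1562, and for Dnajb1 611, 669.7 and 699 with adjuvant alone and 1839, 1337 and 762 with Fat1562. In these 3 genes every Fat1562 library lay above the controls, but replicate 1 was the highest and replicate 3 lay close to the controls. The log2 fold changes were 0.54 ± 0.13 (SE), adjusted p = 0.021 for Hspa8, 0.85 ± 0.23 (SE), adjusted p = 0.049 for Dnaja1 and 0.99 ± 0.26 (SE), adjusted p = 0.0455 for Dnajb1. Dnajc1 was at 477, 486 and 661 with adjuvant alone and 758, 811 and 719.7 with Fat1562, with separate groups (log2 fold change 0.49 ± 0.13 (SE), adjusted p = 0.0348).

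Only Hspa2 and Hspa4l of the 6 kept the call with any single library left out. Hspa8 lost it without Spl/LN adjuvant alone replicate 1 or 2 or Spl/LN adjuvant/Fat1562 replicate 1 or 2 (log2 fold change 0.40 to 0.53, adjusted p = 0.0532 to 0.114), and Dnajc1 without Spl/LN adjuvant alone replicate 1 or 2 or any 1 of the Spl/LN adjuvant/Fat1562 libraries (log2 fold change 0.41 to 0.53, adjusted p = 0.0623 to 0.156). Dnaja1 lost it without any 1 of the Spl/LN adjuvant alone libraries, Spl/LN adjuvant/Fat1562 replicate 1 or 2, VAT adjuvant alone replicate 1 or 2 or VAT adjuvant/Fat1562 replicate 2 (log2 fold change 0.49 to 0.95, adjusted p = 0.0586 to 0.248), and Dnajb1 without any 1 of the Spl/LN adjuvant alone libraries, Spl/LN adjuvant/Fat1562 replicate 1 or 2, VAT adjuvant alone replicate 1 or 2 or VAT adjuvant/Fat1562 replicate 2 (log2 fold change 0.67 to 1.03, adjusted p = 0.0534 to 0.216). For Hspa8, Dnaja1 and Dnajb1 the lowest estimate was the one without Spl/LN adjuvant/Fat1562 replicate 1. The count of called members then fell from 6 to 2 without that library, and also to 2 without Spl/LN adjuvant/Fat1562 replicate 2 or Spl/LN adjuvant alone replicate 1 or 2. How many of all tested genes stayed called in these fits is not given here, so the fall is not shown to be particular to chaperones.

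Hspa1a, with the largest estimate of the 63 in Spl/LN, and Hsph1 were not called. Hspa1a was at 3.86, 7.29 and 0 with adjuvant alone and 79.1, 39.5 and 4.003 with Fat1562 (log2 fold change 3.44 ± 1.15 (SE), adjusted p = 0.106), and Hsph1 at 507, 394 and 457 with adjuvant alone and 1514, 721 and 453 with Fat1562 (log2 fold change 0.98 ± 0.41 (SE), adjusted p = 0.2). Hspa1a passed without Spl/LN adjuvant/Fat1562 replicate 3, at 4.01 (adjusted p = 0.0486), and without VAT adjuvant/Fat1562 replicate 1, which lies outside this comparison, at 3.44 (adjusted p = 0.0444). For both genes the Fat1562 libraries spread from the control level to far above it. The log2 fold changes of the other genes followed in every comparison were -0.13 for Hsf1, -0.41 for Hsf2, 0.16 for Bag3, 1.80 for Hspa1b and 0.25 for Hspa5. They were -0.38 for Hspa9, -0.0035 for Hsp90aa1, 0.30 for Hsp90ab1, 0.0052 for Hsp90b1, -0.18 for Hspd1 and -0.27 for Hspe1, with adjusted p from 0.0847 to 0.996 over these 11 genes. Hspa9 passed, on the lower side, without VAT adjuvant/Fat1562 replicate 3, at -0.39 (adjusted p = 0.0486).

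**Figure D4:**
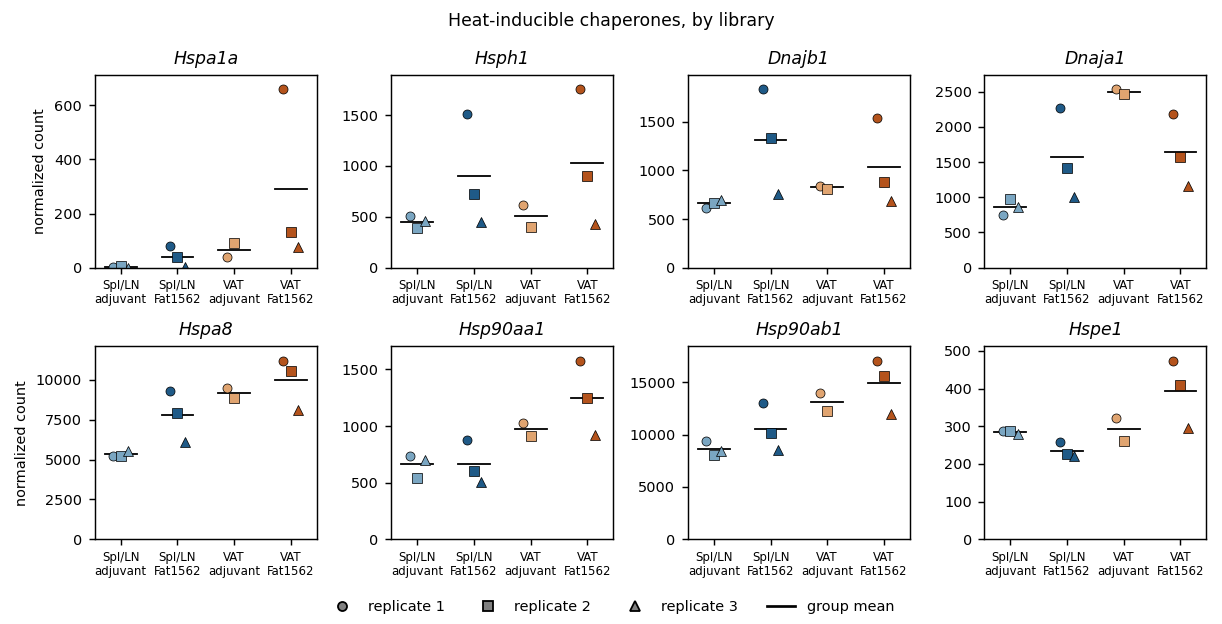
Normalized counts per library (linear axes from 0) for 8 chaperone genes, with a symbol for each replicate number and a bar at the group mean. In both Fat1562 groups replicate 1 is the highest and replicate 3 the lowest library for all 8 genes. All 8 are among the 14 of 63 members that follow this order, and the other members, Bag3 among them, do not.

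In VAT, 1 of 63 members was higher after Fat1562 (1.59%, against 4.33% of all genes) and 3 were lower (4.76%, against 3.97%). The median log2 fold change was -0.01 over the members and 0.01 over all genes. The shares called lay below or near those of all genes. The increase was Hspa4l, at 232 and 247 with adjuvant alone and 523, 370.4 and 410.2 with Fat1562, again without overlap (log2 fold change 0.86 ± 0.19 (SE), adjusted p = 0.00878). The decreases were Bag3, at 375 and 383 with adjuvant alone and 252, 201 and 249.8 with Fat1562 (log2 fold change -0.69 ± 0.19 (SE), adjusted p = 0.0308), Dnajb13, at 622 and 570.0 with adjuvant alone and 347, 365 and 376 with Fat1562 (log2 fold change -0.72 ± 0.19 (SE), adjusted p = 0.0243), and Hsf1, at 526 and 560.0 with adjuvant alone and 362, 356 and 365 with Fat1562 (log2 fold change -0.59 ± 0.17 (SE), adjusted p = 0.0421). The groups stood apart for all 4 genes, and 12 of the 16 immediate early genes were lower in the same comparison, and their part in the result was not tested. Ucp2, the overlapping partner of Dnajb13, had a log2 fold change of 0.10 (adjusted p = 0.542).

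With 2 control libraries in VAT, these calls rested on single libraries. Leaving out VAT adjuvant alone replicate 1 or 2 brought the 4 calls to 0 by edgeR's quasi-likelihood test, with the library that remained assumed to vary like the other groups. Hspa4l then had log2 fold changes of 0.81 (adjusted p = 0.0927) and 0.90 (adjusted p = 0.0624). Bag3 lost its call without VAT adjuvant alone replicate 1 or 2 or any 1 of the VAT adjuvant/Fat1562 libraries (log2 fold change -0.75 to -0.60, adjusted p = 0.0513 to 0.152), Dnajb13 without VAT adjuvant alone replicate 1 or 2 or any 1 of the VAT adjuvant/Fat1562 libraries (log2 fold change -0.78 to -0.65, adjusted p = 0.0532 to 0.163), and Hsf1 without Spl/LN adjuvant/Fat1562 replicate 1, VAT adjuvant alone replicate 1 or 2 or any 1 of the VAT adjuvant/Fat1562 libraries (log2 fold change -0.64 to -0.55, adjusted p = 0.0577 to 0.213). The count was 1 without VAT adjuvant/Fat1562 replicate 1 or 2, and 2 without replicate 3. Calls over all tested genes without these libraries are not given here, so the falls in VAT are not shown to be particular to chaperones.

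Inducible members varied widely among the VAT libraries and were not called. Hspa1a was at 40.1 and 89.8 with adjuvant alone and 661, 130.2 and 77.5 with Fat1562 (log2 fold change 2.16 ± 0.86 (SE), adjusted p = 0.15), Hsph1 at 616 and 403 with adjuvant alone and 1758, 901 and 428 with Fat1562 (log2 fold change 1.01 ± 0.46 (SE), adjusted p = 0.223), and Dnajb1 at 839 and 813 with adjuvant alone and 1535, 884 and 685 with Fat1562 (log2 fold change 0.32 ± 0.30 (SE), adjusted p = 0.602). Replicate 3 of the Fat1562 group lay between the controls for Hspa1a and Hsph1 and below them for Dnajb1. Dnaja1 was lower in every Fat1562 library, at 2542 and 2462 with adjuvant alone and 2182, 1575 and 1162 with Fat1562, but was not called (log2 fold change -0.61 ± 0.25 (SE), adjusted p = 0.165). Hspa8, Hsp90aa1, Hsp90ab1, Hsp90b1, Hspd1 and Hspe1 had log2 fold changes of 0.12, 0.36, 0.18, 0.10, 0.43 and 0.42, with adjusted p from 0.173 to 0.704. Hspd1 passed without VAT adjuvant/Fat1562 replicate 3, at 0.62 (adjusted p = 0.0228). Hsf2, Hspa1b, Hspa5 and Hspa9 had -0.01, 2.26, 0.0024 and -0.08, with adjusted p from 0.216 to 0.994.

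**Figure D5:**
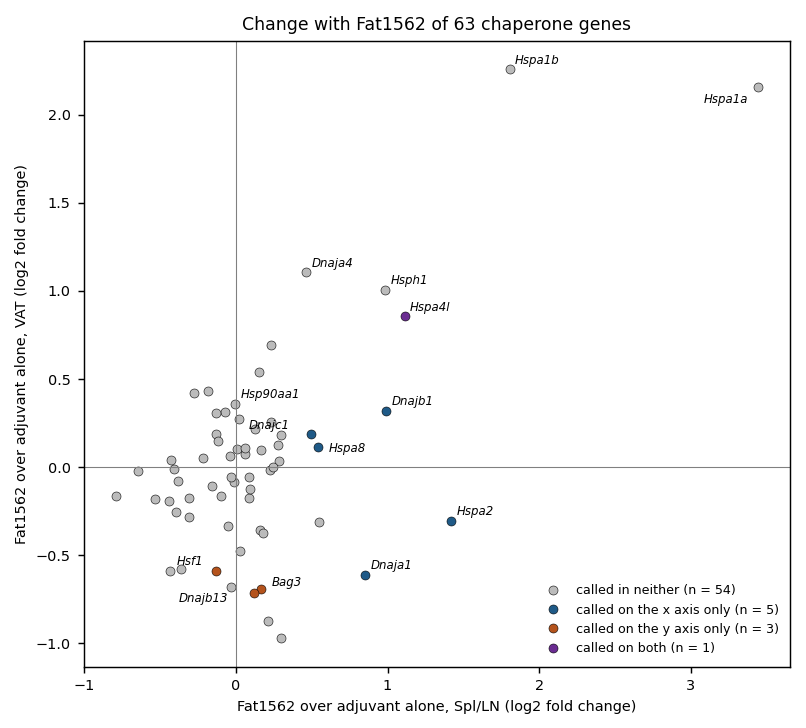
Log2 fold change of adjuvant/Fat1562 over adjuvant alone for each of the 63 genes in Spl/LN (x axis) and VAT (y axis), 1 point per gene, coloured by which comparison called it. Hspa4l was called in both tissues and Dnaja1 and Hspa2 lie to the lower right, while Hspa1a and Hspa1b, with the largest estimates, were called in neither.

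The interaction asked whether the change with Fat1562 differed between tissues, computed as the log2 fold change in VAT minus that in Spl/LN. It was higher in VAT for 0 members by the quasi-likelihood test of edgeR (against 1.7% of all genes). At an unadjusted p under 0.05 there were 11 members (17.5%, against 17% of all genes), and DESeq2 called 4 lower (6.78%, against 4.07%) and 0 higher (against 3.32%). By edgeR it was lower for 2 members (3.17%, against 2.02% of all genes), Dnaja1 and Hspa2. Dnaja1 rose by 0.85 in Spl/LN and was estimated at -0.61 in VAT, a difference of -1.47 ± 0.34 (SE), adjusted p = 0.0226. Hspa2 rose by 1.42 in Spl/LN and was estimated at -0.30 in VAT, a difference of -1.72 ± 0.34 (SE), adjusted p = 0.00728. Hspa2 kept the call with any single library left out, and Dnaja1 lost it without Spl/LN adjuvant alone replicate 1, Spl/LN adjuvant/Fat1562 replicate 1, VAT adjuvant alone replicate 1 or 2 or VAT adjuvant/Fat1562 replicate 2 or 3 (log2 fold change -1.49 to -1.10, adjusted p = 0.05 to 0.0748). Hspa4l, called in both tissues, had an interaction of -0.25 ± 0.25 (SE), adjusted p = 0.687.

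Other members pointed both ways without a call. Bag3 had -0.86 ± 0.26 (SE), adjusted p = 0.0813, and passed without Spl/LN adjuvant alone replicate 3, at -0.95 (adjusted p = 0.0489). Hspe1 and Hspd1 had 0.69 and 0.61, with adjusted p of 0.152 and 0.19, and Hspd1 passed without VAT adjuvant/Fat1562 replicate 3, at 0.81 (adjusted p = 0.0363). Hspa8, Dnajb1, Hsf1 and Hspa1a had -0.43, -0.67, -0.46 and -1.29, with adjusted p from 0.253 to 0.737. Hsph1 was close to 0, at 0.02 ± 0.61 (SE), adjusted p = 0.992. For the remaining genes followed throughout, Hsf2 had 0.39, Hspa1b 0.45, Hspa5 -0.24, Hspa9 0.31, Hsp90aa1 0.36, Hsp90ab1 -0.11 and Hsp90b1 0.10, none of them called.

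A subset of the members followed 1 order among the Fat1562 libraries of both tissues, a pattern described after the values were seen and given with no test. Replicate 1 was the highest library and replicate 3 the lowest in Spl/LN and in VAT for 14 of 63 members (22.2%), where this held for 434 of 12932 tested genes (3.36%). The 14 were the cytosolic genes Hspa1a, Hspa1b, Hspa8, Hsph1, Hsp90aa1, Hsp90ab1, Dnaja1, Dnaja4, Dnajb1 and Dnajb4, the mitochondrial Hspd1 and Hspe1, the ER gene Hsp90b1, and Dnajc13, an endosomal protein. The ratio of replicate 1 to replicate 3 was 19.8 in Spl/LN and 8.53 in VAT for Hspa1a, 3.34 in Spl/LN and 4.1 in VAT for Hsph1, 2.41 in Spl/LN and 2.24 in VAT for Dnajb1, and 1.52 in Spl/LN and 1.38 in VAT for Hspa8. The remaining members did not follow this order, among them Bag3 and the ER chaperone Hspa5, at 4582, 4789 and 4609 in Spl/LN and 4478, 5369 and 3819 in VAT. Whether equal replicate numbers mark 1 mouse is not given in the labels.

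Some co-chaperones outside the chosen families showed the same order. Of 21 tested, 7 had replicate 1 highest and replicate 3 lowest in both tissues (33.3%): Ahsa1, Ahsa2, Chordc1, Ptges3, Stip1, St13 and Cacybp, most of which bind HSP90, while 14 did not, for example Cdc37, Stub1 and Trap1. Stip1, which links HSP70 to HSP90, was at 1483, 1111 and 828 in Spl/LN and 1483, 1338 and 885 in VAT, and Chordc1 at 948, 739.5 and 645 in Spl/LN and 842, 751 and 470.4 in VAT. The summed immediate early genes gave 13732, 14857 and 13424 in Spl/LN and 71753, 62212 and 56293 in VAT. Replicate 3 was lowest for them in both tissues, and replicate 1 was highest in VAT but not in Spl/LN. The share of counts from mitochondrially encoded genes was 0.826, 0.775 and 0.825% in Spl/LN and 0.893, 0.856 and 0.982% in VAT, and total counts lay between 4989677 and 6570057. Which property of the mice or of the handling moved with the replicate number was not tested. Without replicate 1 of both Fat1562 groups, an alternative added after seeing the data, the members called fell from 13 to 5 in the tissue comparison under Fat1562, from 6 to 2 for Fat1562 in Spl/LN and from 4 to 1 for Fat1562 in VAT. The 2 calls of the interaction and 14 calls of the tissue comparison under adjuvant alone were made in that fit. The share of all tested genes called in that fit is not given here, so the drop is not shown to be particular to chaperones. It is not shown to be particular to replicate 1 either. The Spl/LN count also fell to 2 without Spl/LN adjuvant/Fat1562 replicate 2 or Spl/LN adjuvant alone replicate 1 or 2. Fits without replicate 2 or 3 of both Fat1562 groups were not run.

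Related lists were described in the same comparisons. Of the 21 co-chaperones, Unc45a, a myosin chaperone, was higher (log2 fold change 0.35 ± 0.12 (SE), adjusted p = 0.0469) and Tomm34, a partner of mitochondrial import, lower (log2 fold change -0.41 ± 0.12 (SE), adjusted p = 0.0222) in VAT under adjuvant alone. Under Fat1562, Tomm34 (log2 fold change -0.40 ± 0.10 (SE), adjusted p = 0.0146) and Fkbp5, a glucocorticoid-responsive HSP90 partner (log2 fold change -0.89 ± 0.22 (SE), adjusted p = 0.00904), were lower in VAT. After Fat1562 none of the 21 was called in either tissue, the nearest being Chordc1 in Spl/LN (log2 fold change 0.62 ± 0.18 (SE), adjusted p = 0.062), with list medians of 0.05 in Spl/LN and 0.09 in VAT. Among 14 subunits of the chaperonin CCT and of prefoldin, which fold actin and tubulin, Cct6a was higher in VAT under adjuvant alone (log2 fold change 0.42 ± 0.11 (SE), adjusted p = 0.0127), and Cct3 (log2 fold change 0.34 ± 0.10 (SE), adjusted p = 0.0222) and Tcp1 (log2 fold change 0.43 ± 0.11 (SE), adjusted p = 0.00992) under Fat1562. After Fat1562 none of these 14 was called in either tissue, with medians of -0.07 in Spl/LN and 0.15 in VAT.

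In a list of 24 ER folding and stress genes, 5 were higher in VAT under adjuvant alone: Ern1, Herpud1, Pdia3, Ppp1r15a and Xbp1, with a list median of 0.08. The largest was Ppp1r15a, which lets translation resume after stress, at 264, 157 and 263 in Spl/LN and 7285 and 6735 in VAT (log2 fold change 4.94 ± 0.17 (SE), adjusted p = 1.72e-12). Xbp1, a transcription factor of the ER stress response, was at 955, 952 and 926 in Spl/LN and 1484 and 1565 in VAT (log2 fold change 0.69 ± 0.11 (SE), adjusted p = 0.000356). The 3 members found to hold the ER stress element were not called. Hspa5 had a log2 fold change of 0.21 ± 0.11 (SE), adjusted p = 0.225, Hsp90b1 of 0.12 ± 0.11 (SE), adjusted p = 0.54, and Dnajc3 of -0.43 ± 0.14 (SE), adjusted p = 0.0509. Other ER members were called in this comparison, as given above, with Dnajb9 and Dnajc1 higher and Dnajb11 lower. Of 13 tested stress-inducible genes, 5 were higher in VAT under adjuvant alone, among them Gadd45b, Rgs2, Sqstm1 and Ubb, with a list median of 0.40. Gadd45b and Rgs2, known as early response genes in T cells, had log2 fold changes of 4.08 and 5.25, while Ubb, a ubiquitin gene, had 0.40, and Sqstm1, an autophagy receptor that works with BAG3, had 0.77. Under Fat1562, 3 of the 13 were higher in VAT (Gadd45b, Rgs2 and Sqstm1), with a list median of -0.06. After Fat1562, 4 were lower in VAT and 2 in Spl/LN, with Gadd45b at -1.38 (adjusted p = 1.24e-05) in VAT and -0.55 (adjusted p = 0.048) in Spl/LN, list medians of -0.16 and 0.06, and 2 lower in the interaction. In the ER list, 3 of 24 were higher in VAT under Fat1562 (Ern1, Ppp1r15a and Xbp1), with a median of 0.10. After Fat1562, P4hb was higher and Herpud1 and Ppp1r15a were lower in VAT, Syvn1 was higher and Ppp1r15a lower in Spl/LN, and none was called in the interaction, with medians of -0.02 in VAT, 0.03 in Spl/LN and -0.02 in the interaction.

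Over the 5 comparisons, 23 of the 63 members (36.5%) were called at least once, against 27% of all tested genes, and 40 were never called. The uncalled members included most of the DNAJC family and the HSP70 genes Hspa4, Hspa13 and Hspa14. Hspa4, an HSP110-like relative, ran from 1186 to 1663 over all 11 libraries, and Dnaja2, a constitutive cytosolic partner of HSP70, from 1579.5 to 1962.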

How the data were processed

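RNA-seq was performed on 11 Smart-seq2 libraries of 1000 sorted cells each. As deposited by the authors, the values are raw read counts per gene symbol, 1 column per library. The submitters' processing notes name STAR 2.5.4, featureCounts and mm10, and the paper names Cuffquant. Annotation, strand and multi-mapping settings are not given in the sources used here. Counts were tested with edgeR 4.0.16 (R 4.3.3) by the quasi-likelihood test with TMM factors, in 1 fit of the 4 groups over 12932 genes with a mean above 10 in any group, and p-values were adjusted by Benjamini-Hochberg over all of them. Calls were made at adjusted p below 0.05, and a fold change is the fitted one with a prior count of 0.125. Library totals were whole column sums (4490242 to 6570057). The edgeR fit was tested on simulated counts.

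The members, the gene lists and the rule for named genes were chosen with earlier results of these data known. Named in every comparison were Hsf1, Hsf2, Bag3, Hspa1a, Hspa1b, Hspa5, Hspa8, Hspa9, Hsph1, Hsp90aa1, Hsp90ab1, Hsp90b1, Hspd1, Hspe1, Dnaja1 and Dnajb1. To these were added the 5 called members with the largest change in either direction, the ends of a class and the members of the lists. Alternatives were no filter or a minimum of 50, a coefficient of variation under 0.7, median-of-ratios and quantile normalization (limma 3.58.1), DESeq2 1.42.0, only the groups compared, a replicate block, a minimum 2-fold change and leaving out each library. Gene positions and overlaps came from the annotation of the same build, and promoters from RefSeq (GRCm38.p6). The Fat1562 library order, and the genes Hspa4, Dnaja2 and Ucp2, were singled out after their values were seen.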

Additional observations from a re-analysis of the deposited data

Results flagged for a closer look

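For Dnaja1 and Hspa2 the change with Fat1562 differed between VAT and Spl/LN by the interaction test of edgeR, over 12932 genes. Dnaja1, a cytosolic partner of HSP70, had a difference (VAT minus Spl/LN) of -1.47 on the log2 scale, with an SE of 0.34 and an adjusted p of 0.0226. Its estimates were 0.85 in Spl/LN, where all 3 Fat1562 libraries lay above the controls, and -0.61 in VAT, where all 3 lay below them. Hspa2, an HSP70 gene, had a difference of -1.72, with an SE of 0.34 and an adjusted p of 0.00728, from 1.42 in Spl/LN, with all 3 libraries above the controls, and -0.30 in VAT, with all 3 below them. Neither change in VAT was called by edgeR's quasi-likelihood test (adjusted p = 0.165 for Dnaja1 and 0.513 for Hspa2). VAT had only 2 control libraries. The Dnaja1 interaction lost its call when some single libraries were left out, and the Hspa2 interaction kept its call.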

How the results depend on the processing

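Over 38 called results of named genes and 792 alternatives, 643 kept the call, 149 lost it and 0 changed sign, and 9 results kept it under every alternative. Over 60 uncalled results, 33 of 1233 alternatives made a call and 53 changed the sign.

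The count of called members was 13, 13, 4, 6 and 2 for tissue under adjuvant alone, tissue under Fat1562, Fat1562 in VAT, Fat1562 in Spl/LN and the interaction. With no filter it was 8 for Fat1562 in VAT, 9 for Fat1562 in Spl/LN and 5 for the interaction, and DESeq2 gave 4 for the interaction. Requiring a 2-fold change left 7, 4, 0 and 2 for the first 4 comparisons. Leaving out 1 library gave 8 to 15 for tissue under Fat1562, 0 to 6 for Fat1562 in VAT, 2 to 7 for Fat1562 in Spl/LN and 1 to 3 for the interaction. Without VAT adjuvant alone replicate 1 or 2 the group keeps 1 library, assumed to vary like the other groups. With only the groups compared Fat1562 in VAT gave 6, and quantile normalization gave 4 for Fat1562 in Spl/LN. Without replicate 1 of both Fat1562 groups, added after seeing the data, the counts were 5 for tissue under Fat1562, 1 for Fat1562 in VAT and 2 for Fat1562 in Spl/LN. With no filter the median of all genes in the interaction moved to 0.1345. Except for DESeq2, the share of all tested genes called in these fits, or with the replicate block below, is not given here. The shifts in count are therefore not shown to be particular to chaperones. Beside the smaller numbers of libraries or genes that some alternatives hold, causes were not tested.

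With the replicate block the counts were 12, 15, 5, 7 and 2. Since not every pair of same-numbered libraries correlated above 0.1 over all genes, the numbers were not taken as pairs, although some chaperones followed the number in both Fat1562 groups. Deviations of same-numbered libraries from their group means correlated at -0.0395 to 0.0554 over 15 pairs, with 0 above 0.1. Only pairs of Spl/LN with VAT under the same immunization could come from 1 mouse, and these were the highest. They were at 0.0373 and 0.0303 under adjuvant alone and at 0.0554, 0.03 and 0.0299 under Fat1562. All other pairs lay between -0.0395 and 0.0253. Whether same-numbered libraries share a mouse therefore stays unknown. The block changed the sign of Hsph1 (-0.2094) and Hspe1 (-0.05074) for tissue under adjuvant alone and of Hsp90b1 (-0.0002929) for Fat1562 in Spl/LN.

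Other changes of sign were in uncalled genes. For Fat1562 in VAT, Hspa5 was at -0.005178 with a minimum of 50, -0.01204 with the coefficient of variation limit, -0.01181 with median-of-ratios factors, -0.01191 with DESeq2 and -0.003797 with only the groups compared. For Fat1562 in Spl/LN, Hsp90b1 was at -0.009845, -0.004131, -0.001149 and -0.001253 under the first 4 of these and at -0.0347 with quantile normalization, and Hsp90aa1 was at 0.0001255 with no filter. Quantile normalization gave -0.1231 for Hspa5 and -0.1068 for Hsp90b1 for tissue under adjuvant alone, and -0.008256 for Hsph1 and 0.1797 for Hsp90ab1 in the interaction. Without replicate 1 of both Fat1562 groups, Dnajb1 was at -0.07593 for Fat1562 in VAT, Hsp90b1 at -0.05084 for Fat1562 in Spl/LN and Hspa1b at -0.9711 in the interaction.

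Leaving out 1 library gave, for tissue under adjuvant alone, -0.1678 to 0.4452 for Hsph1 and -0.1184 to 0.1853 for Hspe1. For tissue under Fat1562 it gave -0.1679 to 0.08103 for Hspa5, -0.4313 to 0.8094 for Hsph1 and -0.1959 to 0.4312 for Dnaja1. For Fat1562 in VAT it gave -0.2396 to 0.1263 for Hsf2, -0.1326 to 0.1109 for Hspa5, -0.2227 to 0.07182 for Hspa9 and -0.08075 to 0.5447 for Dnajb1. For Fat1562 in Spl/LN it gave -0.2452 to 0.07944 for Hsf1, -0.2605 to 0.1634 for Hsp90aa1 and -0.05083 to 0.06598 for Hsp90b1. In the interaction it gave -1.276 to 0.9638 for Hspa1b, -0.6053 to 0.6365 for Hsph1 and -0.246 to 0.06688 for Hsp90ab1.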

Other observations

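Of the 16 immediate early genes, 15 were higher in VAT under adjuvant alone, with a median log2 fold change of 2.89, and 15 under Fat1562, with a median of 2.19, while 1 was lower. After Fat1562 in VAT 12 were lower, with a median of -1.105, and in Spl/LN 1 was higher and 4 were lower. Of 12 cell division genes, 3 were lower in VAT under adjuvant alone and 8 were higher under Fat1562, and 10 were higher after Fat1562 in VAT, with medians of 0.72 in VAT and -0.12 in Spl/LN.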
